A study of Mus musculus with 12 samples.

Results

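The genes of the aryl hydrocarbon receptor (AHR) pathway described here are 7 genes of the 36047 in the table, taken by gene symbol: the receptor Ahr, its partner Arnt, its repressor Ahrr, and the target genes Cyp1a1, Cyp1b1, Tiparp, and Nqo1. Their RNA was measured by RNA sequencing in eosinophils of the mouse small intestine (SI), granulocytes that enter the gut from the blood and reside in the lamina propria. Wild type C57BL/6J mice on standard chow, all female by the sample labels, gave 3 sorted eosinophil subsets with 4 libraries each, 12 in all. The subsets were α4β7+ cells, which carry the gut-homing integrin, α4β7− CD22− cells, and CD22+ cells, which the study takes as approximately younger, intermediate, and older SI eosinophils. No subset carried a transgene or a treatment. Each library came from 2 pooled mice, so that a difference between single mice cannot be seen, and the study's methods name both sexes for its experiments. The gate kept CD45+ CD11b+ SiglecF+ cells from the proximal SI and removed MHCII+ and Ly6G+ cells.

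AHR is a receptor of the bHLH-PAS family that rests in the cytosol with HSP90. When it binds a ligand from the diet, from microbes, or from tryptophan metabolism, it enters the nucleus, pairs with ARNT, and binds xenobiotic response elements in target genes. Cyp1a1 and Cyp1b1 encode P450 enzymes that oxidize such ligands, whereas Ahrr and Tiparp encode proteins that restrain the receptor. Because AHR induces these genes, their transcripts are widely used as readouts of the pathway. Nqo1, a quinone reductase, is a target of both AHR and NRF2, the oxidative stress factor.

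The promoters of the target genes are shown because the pathway is defined by the response element they may hold. Each sequence runs 5′ to 3′ in the direction of the gene, from 250 bases before to 50 bases after the RefSeq start site in GRCm38.p6, with the element's core, GCGTG, in capitals on the strand printed or as CACGC where the core lies on the other strand. The windows are chr17:79715012-79715311 (minus strand) for Cyp1b1, chr13:74292282-74292581 (minus) for Ahrr, chr3:65528197-65528496 (plus) for Tiparp, chr9:57697363-57697662 (plus) for Cyp1a1, whose RefSeq start lies inside the GENCODE gene, and chr8:107403156-107403455 (minus) for Nqo1.
Cyp1b1: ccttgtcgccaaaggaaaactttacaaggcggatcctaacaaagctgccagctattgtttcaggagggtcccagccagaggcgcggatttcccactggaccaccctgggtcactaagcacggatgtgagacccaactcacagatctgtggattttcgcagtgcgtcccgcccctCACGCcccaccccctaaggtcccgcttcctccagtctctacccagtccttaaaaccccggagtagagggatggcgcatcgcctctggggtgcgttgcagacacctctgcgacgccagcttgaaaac
Ahrr: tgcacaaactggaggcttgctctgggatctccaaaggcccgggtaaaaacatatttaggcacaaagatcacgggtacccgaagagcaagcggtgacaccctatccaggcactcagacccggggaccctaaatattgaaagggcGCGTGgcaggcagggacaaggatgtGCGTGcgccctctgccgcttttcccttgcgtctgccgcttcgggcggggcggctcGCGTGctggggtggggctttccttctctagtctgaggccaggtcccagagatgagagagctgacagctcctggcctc
Tiparp: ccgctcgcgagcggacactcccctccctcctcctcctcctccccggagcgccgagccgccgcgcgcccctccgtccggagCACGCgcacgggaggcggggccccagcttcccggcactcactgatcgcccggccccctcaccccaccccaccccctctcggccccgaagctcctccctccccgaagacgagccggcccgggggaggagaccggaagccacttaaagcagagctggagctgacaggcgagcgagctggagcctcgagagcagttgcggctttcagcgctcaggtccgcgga
Cyp1a1: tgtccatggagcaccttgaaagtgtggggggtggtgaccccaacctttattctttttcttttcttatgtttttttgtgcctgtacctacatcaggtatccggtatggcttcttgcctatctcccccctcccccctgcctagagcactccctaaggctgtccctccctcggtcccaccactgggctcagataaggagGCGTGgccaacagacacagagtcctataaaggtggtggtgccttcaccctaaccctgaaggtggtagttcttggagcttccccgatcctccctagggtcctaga
Nqo1: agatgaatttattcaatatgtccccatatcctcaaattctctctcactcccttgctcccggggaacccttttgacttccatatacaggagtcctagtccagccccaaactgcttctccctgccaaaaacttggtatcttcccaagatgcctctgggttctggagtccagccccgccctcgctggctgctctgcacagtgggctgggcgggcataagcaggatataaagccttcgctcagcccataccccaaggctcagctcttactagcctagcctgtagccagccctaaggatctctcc

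The Ahrr window held 3 cores, which began 107, 82, and 27 bases before the start site, and the last was part of the longer motif TNGCGTG. Cyp1b1, Tiparp, and Cyp1a1 held 1 core each, 76, 170, and 54 bases before the start. The Nqo1 window held neither the core nor the antioxidant response element TGACNNNGC, searched on both strands. Of 32851 mouse promoter windows of this length, 32.4% held at least 1 core, 3.91% at least 3, 5.07% the longer motif, and 12.4% the antioxidant element. Among the 14060 windows of genes tested here, 46.6% held a core and 6.76% held at least 3, so that 1 core in a window was common. These matches describe letters only, in short windows, and every match of the longer motif is also a match of the core.

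The values are DESeq2-normalized counts as the authors deposited them, summing to between 14286474 and 16915755 per library, with 19760 to 21960 genes above 0. One read was worth an estimated 0.852 to 1.159 normalized counts, and 3 reads, used as the floor of detection, 2.56 to 3.48. Both are approximate and cover counting error only. Differences were tested with limma on log2(normalized count + 1) over the 15249 genes with an average above 10, and calls required an adjusted p no higher than 0.05 together with a difference of 1.5-fold or more. Of the 7 genes, 6 passed this filter, and Cyp1a1 did not. In α4β7+, α4β7− CD22−, and CD22+ libraries, Itgb7 averaged 2526, 220, and 156 normalized counts and Cd22 1115, 4462, and 13334. Each of these sort genes was thus highest in the subset sorted for it. Cd22 RNA was also higher in α4β7− CD22− than in α4β7+ (log2 difference 1.99, limma adjusted p = 3.25e-07). Itga4, the α4 chain, averaged 37469, 29433, and 26876 and was not called in any comparison, and Siglecf averaged 7534, 7827, and 7340. On the first principal component of 500 genes, α4β7+ replicate 2 had the largest absolute score, 51.87, against 11.11 to 25.45 in the other α4β7+ libraries.

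Cyp1b1 and Ahrr rose and Nqo1 fell from α4β7+ to α4β7− CD22− eosinophils, while the receptor itself differed by less than 1.5-fold. Of the 6 genes tested, 2 were called higher and 1 lower, against 3.7% of all genes called higher and 4.35% called lower. Between CD22+ and α4β7+ eosinophils the same 3 genes were called in the same directions, against backgrounds of 5.6% higher and 6.39% lower. Both comparisons use the same α4β7+ libraries. Between CD22+ and α4β7− CD22− eosinophils, Cyp1b1 alone among the 6 was called, as higher, where 0.21% of all genes were called higher and 0.393% lower. The median log2 difference of the 6 genes was 0.34, 0.34, and -0.005 in the 3 comparisons, beside 0.003, 0.014, and -0.001 over all genes tested.

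**Figure D1:**
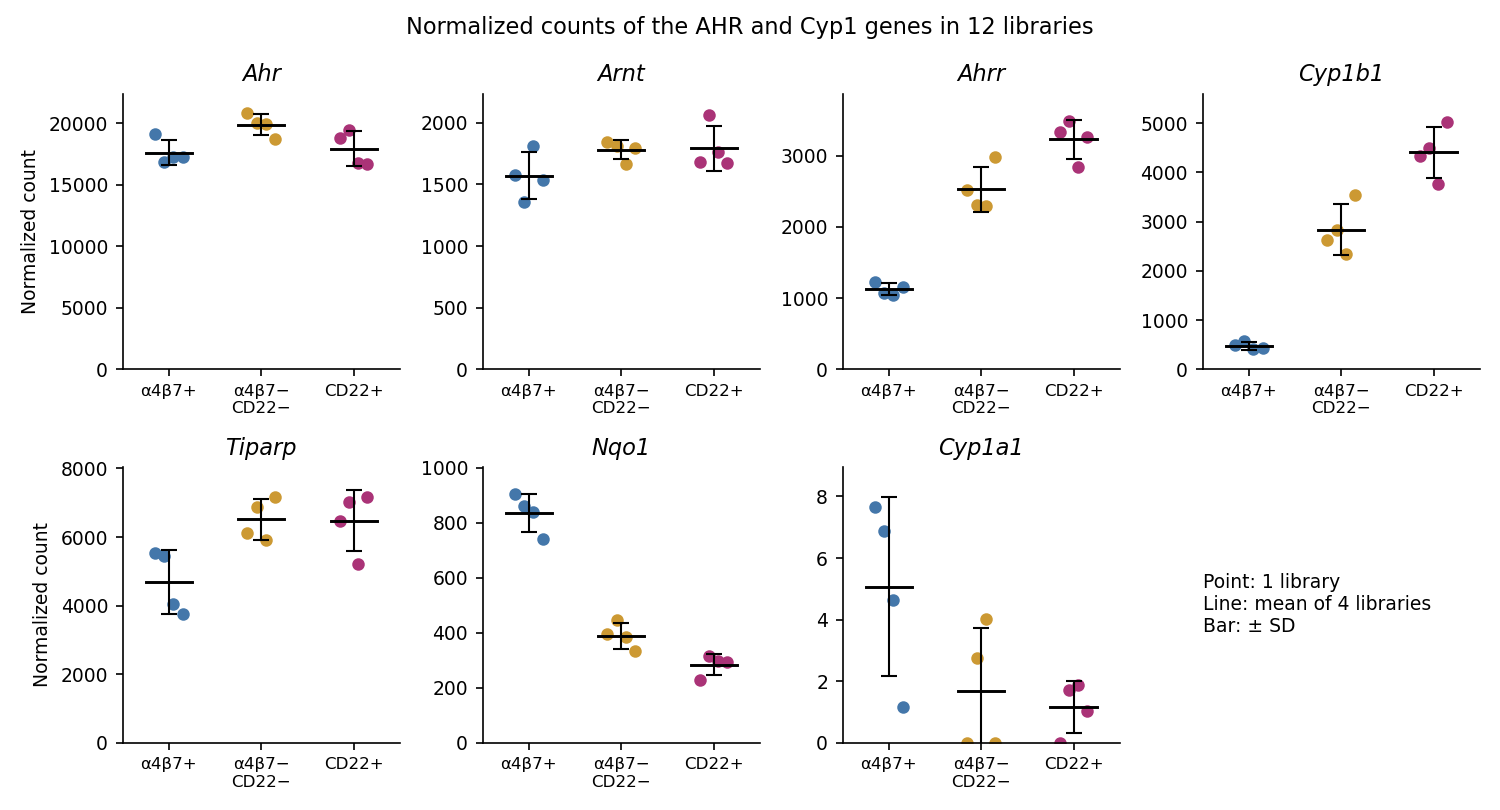
Normalized counts (linear axes from 0) of the 7 genes in each of the 12 libraries by subset, with the mean of 4 libraries and the SD. Cyp1b1 and Ahrr libraries of α4β7+ cells lie below all others, Nqo1 libraries lie above, Ahr stays between 16638 and 20790, and Cyp1a1 stays below 8.

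Ahr (chr12:35497974-35535038, minus strand, 11 exons), the receptor gene, was abundant in every library. Its normalized counts were 19103, 16800, 17233, and 17243 in α4β7+ replicates 1 to 4, 20790, 20012, 19961, and 18715 in α4β7− CD22−, and 18786, 19433, 16749, and 16638 in CD22+. The subsets overlapped, with means of 17595 ± 1027, 19869 ± 858, and 17902 ± 1420 (SD, n = 4). Per kilobase of annotated transcript, Ahr ranked 305th, 224th, and 225th among 15242 genes, in the top 2.00%, 1.47%, and 1.48%. The log2 difference was 0.18 for α4β7− CD22− against α4β7+ (95% interval 0.03 to 0.32, limma adjusted p = 0.106) and 0.02 for CD22+ against α4β7+ (-0.12 to 0.17, limma adjusted p = 0.857). For CD22+ against α4β7− CD22− it was -0.15 (-0.30 to -0.01, limma adjusted p = 0.489), so that all 3 intervals lay within 1.5-fold. Their adjusted p depended on the scaling. With quantile normalization, the differences were 0.35 (limma adjusted p = 0.000228), 0.38 (adjusted p = 6.2e-05), and 0.03 (adjusted p = 0.927), the last with the other sign, and all 3 still less than 1.5-fold. With scaling by the 75th percentile, the first was 0.20 (adjusted p = 0.0446).

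Arnt (chr3:95434388-95497240, plus strand, 21 exons) encodes the partner that AHR needs to bind DNA, and was an order of magnitude below Ahr. Normalized counts were 1574, 1355, 1815, and 1538 in α4β7+ replicates, 1840, 1815, 1668, and 1799 in α4β7− CD22−, and 1683, 2062, 1763, and 1670 in CD22+. Again the subsets overlapped, and log2 differences of 0.19, 0.19, and 0.01 were not called (limma adjusted p = 0.221, 0.173, and 0.992). The intervals were -0.01 to 0.39, -0.01 to 0.40, and -0.20 to 0.21. Per kilobase, Ahr stood 8.82 ± 1.02, 8.71 ± 0.505, and 7.81 ± 0.625 times above Arnt (SD, n = 4). Arnt overlaps a same-strand pseudogene, Gm42672, which averaged 40.1 normalized counts, so a small share of reads may be assigned to either.

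Ahrr (chr13:74211118-74292331, minus strand, 11 exons), the repressor that competes with AHR for ARNT, was higher in both subsets without α4β7. The counts were 1230, 1068, 1043, and 1151 in α4β7+ replicates, 2518, 2304, 2293, and 2981 in α4β7− CD22−, and 3330, 3483, 2839, and 3267 in CD22+. Every library of the α4β7− CD22− and CD22+ subsets was above every α4β7+ library, whereas these 2 subsets overlapped through α4β7− CD22− replicate 4 and CD22+ replicate 3. The means were 1123 ± 84.9, 2524 ± 322, and 3230 ± 276 (SD, n = 4). Ahrr was 2.24-fold higher in α4β7− CD22− than in α4β7+ (95% interval 1.94 to 2.58, limma adjusted p = 1.53e-06) and 2.87-fold higher in CD22+ (2.49 to 3.31, adjusted p = 3.54e-08). Between CD22+ and α4β7− CD22− the ratio was 1.28 (1.11 to 1.48, limma adjusted p = 0.108) and was not called.

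Cyp1b1 (chr17:79701537-79715061, minus strand, 3 exons), the P450 enzyme that also acts on retinoids and steroids, differed most among the 7 genes. It measured 501, 581, 403, and 428 normalized counts in α4β7+ replicates 1 to 4. In α4β7− CD22− the counts were 2628, 2820, 2339, and 3548, and in CD22+ they were 4338, 4502, 3774, and 5021. The 3 subsets did not overlap. Cyp1b1 was 5.9-fold higher in α4β7− CD22− than in α4β7+ (95% interval 4.82 to 7.24, limma adjusted p = 2.62e-08) and 9.25-fold higher in CD22+ (7.55 to 11.3, adjusted p = 7.53e-10). The further rise to CD22+ was 1.57-fold (1.28 to 1.92, limma adjusted p = 0.0361). That call was the least stable. It did not hold in a model without the trend of variance with expression (limma adjusted p = 0.152), without the filter on low counts (adjusted p = 0.0527), or in 7 of 12 fits that left out 1 library. Over all 12 such fits the log2 difference was 0.56 to 0.76 and the adjusted p up to 0.117. The libraries whose loss ended the call were α4β7+ replicate 1, α4β7− CD22− replicates 1, 2, and 3, and CD22+ replicates 1, 2, and 4.

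α4β7− CD22− replicate 4 was the highest library of its subset for Ahrr, Cyp1b1, and Tiparp and the lowest for Ahr and Nqo1. It also held the most Cd22 RNA of its subset, 5819 normalized counts against 3693 to 4247 in the other libraries. CD22+ replicate 3 was lowest of its subset for Ahrr, Cyp1b1, and Tiparp and held the least Cd22 RNA, 11553 against 12440 to 14766. Whether the sort gates set these values was not tested.

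The log2 difference of Cyp1b1 and of Ahrr was larger in the first step, from α4β7+ to α4β7− CD22−, than in the second, from α4β7− CD22− to CD22+. The difference between the log2 steps was -1.91 for Cyp1b1 (95% interval -2.42 to -1.41, limma adjusted p = 0.000991) and -0.80 for Ahrr (-1.16 to -0.45, adjusted p = 0.0306), and both were called, against 1.18% of all genes. For Ahrr the call did not survive a model without the variance trend (adjusted p = 0.113), nor 6 of 12 fits with 1 library left out, those without α4β7+ replicates 2 or 3, α4β7− CD22− replicates 1, 2, or 4, or CD22+ replicate 4. The difference ranged from -0.89 to -0.64 over all 12 fits. For Nqo1 the difference between steps was 0.65 (0.18 to 1.11, limma adjusted p = 0.196). For Tiparp, Ahr, and Arnt the differences were -0.51, -0.33, and -0.18 (limma adjusted p = 0.376, 0.236, and 0.739).

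**Figure D2:**
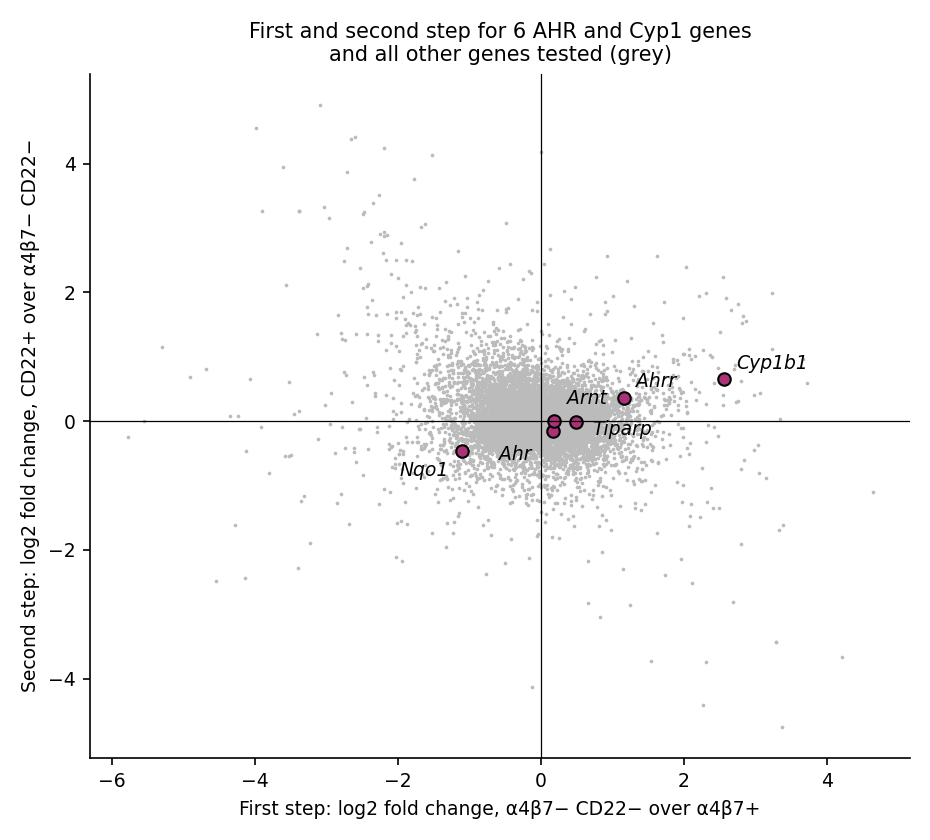
Log2 fold change of every tested gene in the first step (horizontal, α4β7− CD22− over α4β7+) and the second step (vertical, CD22+ over α4β7− CD22−), with 6 AHR pathway genes in color and the others in grey. Both axes share the α4β7− CD22− libraries. Cyp1b1 lies at 2.56 and 0.65, Ahrr at 1.16 and 0.36, and Nqo1 at -1.11 and -0.46.

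Relative to its repressor, Cyp1b1 also moved. Per kilobase and in the order α4β7+, α4β7− CD22−, and CD22+, Cyp1b1 was 0.396 ± 0.0731, 1.04 ± 0.0953, and 1.27 ± 0.107 times Ahrr (SD, n = 4), so that the order of the pair turned. The receptor exceeded Ahrr per kilobase by 13.5 ± 0.55, 6.84 ± 0.989, and 4.76 ± 0.289 times. These ratios are descriptions of the levels given above.

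Tiparp (chr3:65528410-65555518, plus strand, 6 exons) encodes a mono-ADP-ribosyltransferase that AHR induces and that modifies the receptor. Its counts were 5540, 5433, 4052, and 3742 in α4β7+ replicates, 6124, 6884, 5916, and 7165 in α4β7− CD22−, and 6475, 7019, 5224, and 7177 in CD22+. Every α4β7− CD22− library was above every α4β7+ library, whereas CD22+ replicate 3 fell within the α4β7+ range. The estimate for α4β7− CD22− over α4β7+ was 1.41-fold (95% interval 1.16 to 1.71, limma adjusted p = 0.0211), and for CD22+ over α4β7+ it was 1.39-fold (1.14 to 1.69, adjusted p = 0.0185). Both passed the adjusted p and missed the fold threshold, so Tiparp was not called. The adjusted p itself ran up to 0.0655 and 0.0561 under other settings and up to 0.0658 and 0.0613 with 1 library left out. With quantile normalization, the CD22+ difference was 0.59 on the log2 scale (limma adjusted p = 0.00223) and was called. CD22+ over α4β7− CD22− gave 0.988 (0.812 to 1.2, limma adjusted p = 0.986). The opposite-strand gene 4931440P22Rik overlaps Tiparp and averaged 148 normalized counts. The kit marks strand, and the strand setting of the pseudoalignment is not given in the sources used here.

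Immediate early genes respond rapidly to stimuli and to cell handling, and a list of 15 genes held them together with heat shock genes. In α4β7− CD22− against α4β7+ 6 fell, 8 fell in CD22+ against α4β7+, and Jun fell again in CD22+ against α4β7− CD22−, with none called higher. Of all genes, 4.35%, 6.39%, and 0.393% were called lower in these comparisons. The genes that fell in both comparisons against α4β7+ included Jun, Dusp1, Zfp36, and Ier3. Estimates were above 0 for 6 of the 15 in α4β7− CD22− and for 4 in CD22+ against α4β7+. Fos in the first comparison, at 0.32 on the log2 scale (limma adjusted p = 0.0323), and Atf3 in the second, at 0.41 (adjusted p = 0.0332), passed the adjusted p but not the fold threshold. In the difference between steps Fos was called, as lower, at -0.73 (limma adjusted p = 0.043), the 1 gene of the 15, beside 1.18% of all genes in either direction. The summed normalized counts of the 15 genes ran from 190770 to 241570 in α4β7+, from 178191 to 200127 in α4β7− CD22−, and from 131867 to 158008 in CD22+. Their median log2 differences were -0.28, -0.69, and -0.41. Within the α4β7+ subset, replicate 4 had both the lowest sum and the least Tiparp and replicate 1 the highest of both. In α4β7− CD22−, replicate 4 had the lowest sum and the most Tiparp. In CD22+, replicate 3 had both the lowest sum and the least Tiparp, and replicate 4 the second lowest sum and the most Tiparp. The part of these genes' changes in the Tiparp values was not tested.

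Nqo1 (chr8:107388225-107403206, minus strand, 6 exons), the quinone reductase, fell. Its counts were 906, 863, 838, and 743 in α4β7+ replicates, 394, 447, 385, and 332 in α4β7− CD22−, and 228, 315, 299, and 293 in CD22+. No library of 1 subset overlapped another subset, with means of 837 ± 69.1, 390 ± 47.0, and 284 ± 38.4 (SD, n = 4). Nqo1 was 2.15-fold lower in α4β7− CD22− than in α4β7+ (log2 difference -1.11, 95% interval -1.37 to -0.84, limma adjusted p = 2.83e-05) and 2.96-fold lower in CD22+ (-1.57, -1.83 to -1.30, adjusted p = 4.17e-07). CD22+ against α4β7− CD22− gave -0.46 (-0.73 to -0.19, limma adjusted p = 0.119) and was not called although the libraries did not overlap. In the sorted subsets, Nqo1 thus ran opposite to Cyp1b1 and Ahrr.

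Cyp1a1 (GENCODE coordinates chr9:57687928-57703824, plus strand, 7 exons), the P450 gene most often used to report AHR activity, was near the limit of detection. Its normalized counts were 7.65, 6.86, 4.62, and 1.16 in α4β7+ replicates, 0, 2.75, 4.03, and 0 in α4β7− CD22−, and 0, 1.70, 1.86, and 1.04 in CD22+. At or under the floor of 3 reads were 1, 3, and 4 of the 4 libraries. The mean difference on log2(normalized count + 1) was -1.36 for α4β7− CD22− against α4β7+ (exact permutation test, two-sided, p = 0.171) and -1.43 for CD22+ against α4β7+ (exact permutation p = 0.0857). CD22+ and α4β7− CD22− gave an exact permutation p of 1. With 70 assignments of 4 against 4 libraries the smallest possible p was 0.0286, and the 3 p-values were not adjusted. No difference in Cyp1a1 passed, and its level stood near the floor in all 3 subsets while Cyp1b1 ran from 403 to 5021. The neighboring paralog Cyp1a2 averaged 0.764 and was listed at 0 in 8 of 12 libraries. Cyp1a1 shares 528 of its 2697 transcript bases with Cyp1a2 at 93.9% identity, so some of their reads may be hard to tell apart, which was not tested. Stretches of at least 50 bases at 90% identity were also shared by Ahrr with 110 other genes and by Arnt with 72, with single matches covering up to 3.53% and 1.90% of the transcript.

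**Figure D3:**
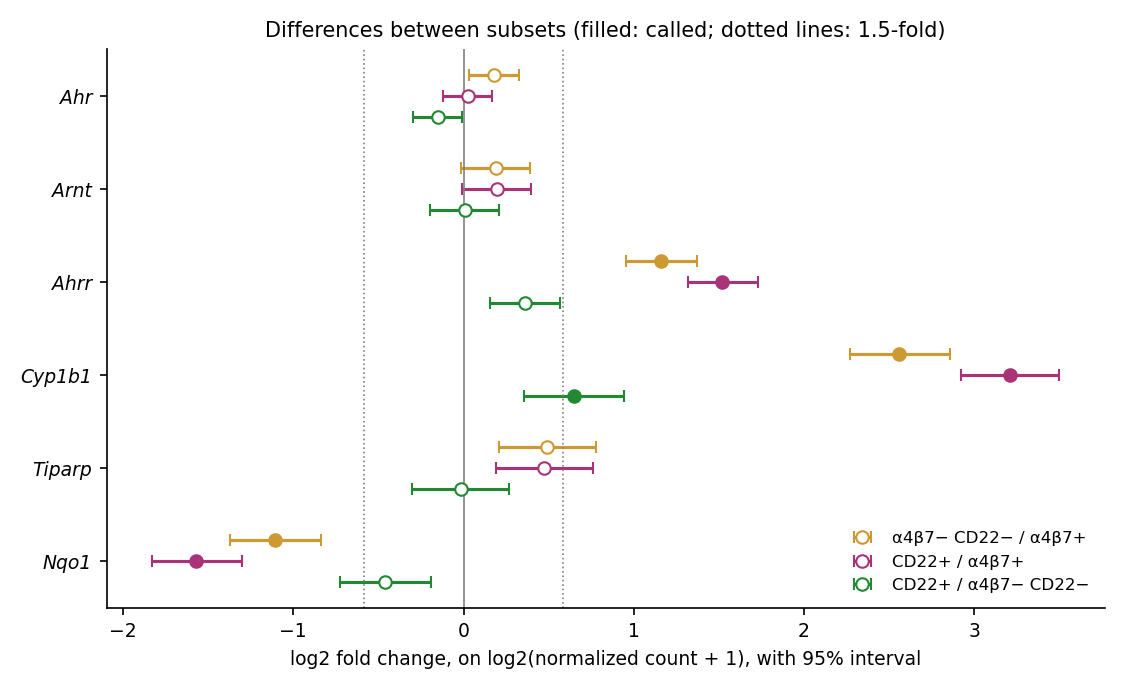
Log2 fold changes of the 6 tested genes with 95% intervals from limma, for the 3 comparisons in color. Filled points were called, dotted lines mark 1.5-fold, and the intervals of Ahr and Arnt lie between those lines in all 3 comparisons.

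Ranked per kilobase, the order of the 7 genes was Ahr, Tiparp, Nqo1, Arnt, Ahrr, Cyp1b1, and Cyp1a1 in α4β7+ eosinophils, at 3171, 1120, 539, 363, 236, and 93.3 normalized counts per kilobase for the first 6. In CD22+ eosinophils it was Ahr, Tiparp, Cyp1b1, Ahrr, Arnt, Nqo1, and Cyp1a1, at 3227, 1545, 860, 679, 415, and 183 for the first 6. Cyp1b1 passed from the top 46.2% of tested genes to the top 7.11%, and Nqo1 from the top 12.6% to the top 32.4%. In α4β7− CD22− eosinophils, Cyp1b1 and Ahrr were neighbors at 553 and 531 per kilobase, and their ratio there, from 0.946 to 1.14 across libraries, included 1.

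Over the 12 libraries, the log2 values of Ahrr and Cyp1b1 moved together with Pearson's r = 0.988, and each ran against Nqo1 with r = -0.973 and -0.963. Tiparp followed Cyp1b1 less closely, with r = 0.816, and Ahr was only weakly related to Cyp1b1, with r = 0.292, and to Ahrr, with r = 0.32. The libraries share 3 subsets and a common scaling, so these values describe the subset pattern and carry no test. The genes with a mean of at least 100 most like Cyp1b1 were Ppfibp2 (r = 0.998), Gm10693 (0.993), and Tspan13 (0.993), and those most like Ahrr were Sash1 (0.991), Zfp773 (0.989), and Cyp1b1 itself (0.988). Ppfibp2 averaged 798 ± 48.3, 1594 ± 60.2, and 1948 ± 110 normalized counts, and Sash1 377 ± 69.4, 2091 ± 171, and 3721 ± 565 (SD, n = 4). Most like Nqo1 were Arpc2, an actin-nucleation subunit (r = 0.989), Rnase12 (0.986), and Aldoa, a glycolytic enzyme (0.983). For Tiparp they were Zfp867 (0.964), the proton channel gene Hvcn1 (0.948), and the sterol synthesis gene Nsdhl (0.947). For Arnt they were Zfp157 (0.923), C2cd3 (0.919), and Pbx3 (0.899).

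Most like Ahr were Egr1 (r = 0.951), an immediate early gene, Ckb (0.916), and the chemokine gene Ccl3 (0.908). Egr1 averaged 30134 ± 3543, 39511 ± 5112, and 30755 ± 5791 normalized counts (SD, n = 4), with the same order of subsets as Ahr. Within CD22+, replicates 1 and 2 exceeded replicates 3 and 4 for both Ahr and Egr1.

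Of 18 other genes that AHR is known to induce, 13 were tested. Tnfaip2 rose in α4β7− CD22−, and in CD22+ Tnfaip2 was higher and Serpinb2, Lpcat2, and Cdkn1a lower than in α4β7+. The 1 gene higher in each of these comparisons stands beside the 3.7% and 5.6% of all genes called higher, and the 3 lower beside 6.39%. None was called between CD22+ and α4β7− CD22−. The median log2 differences were -0.35, -0.37, and -0.07.

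Tnfaip2, a gene induced by tumor necrosis factor, measured 4830 ± 252, 10317 ± 478, and 11410 ± 1721 normalized counts (SD, n = 4). Its log2 difference was 1.10 in α4β7− CD22− (limma adjusted p = 2.61e-06) and 1.23 in CD22+ (adjusted p = 3.12e-07), both against α4β7+, and 0.13 between the 2 later subsets (adjusted p = 0.753). The steps differed by -0.96 (limma adjusted p = 0.0111), the same sign as for Cyp1b1 and Ahrr. Serpinb2, which encodes a plasminogen activator inhibitor, averaged 6745, 4604, and 3762, with a log2 difference of -0.84 in CD22+ (limma adjusted p = 0.000341). Lpcat2 and the cell cycle inhibitor Cdkn1a fell by 0.60 (limma adjusted p = 2.46e-05) and by 0.79 (adjusted p = 0.000484) on the log2 scale. The 5 genes not tested were Cyp1a2, Aldh3a1, Ereg, Il22, and Fgf21, with averages at or below 10. Aldh3a1 was listed at 0 in 9 libraries.

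Other proteins hold the receptor in the cytosol or act with it in the nucleus. Of 13 such genes, none was called in the first step, and 2 fell in CD22+ against α4β7+, where 6.39% of all genes were called lower. Hsp90ab1, a chaperone of the resting receptor, averaged 8493, 6237, and 4953 normalized counts (log2 difference -0.78, limma adjusted p = 8.16e-06), and the coactivator Ncoa1 1355, 910, and 722 (-0.90, adjusted p = 0.00132). The inducible chaperone Hsp90aa1 averaged 6968, 7444, and 6020, without a call.

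Other genes of the bHLH-PAS family compete for the same partners or keep the circadian clock. Of 13 such genes 10 were tested, and 1 was called, in CD22+ against α4β7+, where 5.6% of all genes were called higher. This was Clock, at 344, 504, and 597 normalized counts with a log2 difference of 0.81 (limma adjusted p = 5.73e-05). Hif1a, the hypoxia factor that also pairs with ARNT, averaged 7128, 5969, and 5341, and its log2 difference of -0.42 in CD22+ passed the adjusted p (limma, 0.000357) but not the fold threshold. Over all libraries, Ahr stood at 3327 and Hif1a at 1301 normalized counts per kilobase.

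Tryptophan metabolism is a source of endogenous AHR ligands. Of 13 tested genes, Afmid rose in α4β7− CD22−, Afmid and Il4i1 rose in CD22+ against α4β7+, and Haao and Tph1 fell there. These counts stand beside 3.7% of all genes called higher in the first comparison, and 5.6% higher and 6.39% lower in CD22+ against α4β7+. Afmid, which forms kynurenine, averaged 103 ± 31.3, 158 ± 22.4, and 177 ± 7.23 (SD, n = 4), with log2 differences of 0.65 (limma adjusted p = 0.0357) and 0.82 (adjusted p = 0.00692) against α4β7+. Il4i1, an amino acid oxidase that makes indole AHR ligands, was low, at 40.5 ± 16.1, 59.0 ± 15.5, and 82.9 ± 30.2, with 1.04 in CD22+ (limma adjusted p = 0.0354). Tph1, the serotonin-forming enzyme, averaged 35.4 ± 24.6 in α4β7+ and 3.79 ± 1.89 in CD22+ libraries, with wide spread in α4β7+ (log2 difference -2.64, limma adjusted p = 0.0118). Haao averaged 209, 177, and 137, with -0.62 (limma adjusted p = 0.0103).

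Nqo1 shares the NRF2 program with other detoxification genes, of which 16 were tested. Nqo2 and Mgst1 fell with Nqo1 and Hmox1 rose, in α4β7− CD22− and in CD22+ against α4β7+, and the other 13 were not called. In each comparison these 2 lower and 1 higher of 16 stand beside 4.35% lower and 3.7% higher over all genes in the first, and 6.39% and 5.6% in the second. Nqo2, the second quinone reductase, averaged 861, 513, and 414 (log2 differences -0.75 and -1.05, limma adjusted p = 0.000303 and 6.42e-06). Mgst1, a membrane glutathione transferase, averaged 376, 179, and 127 (-1.05 and -1.55, limma adjusted p = 0.000437 and 5.72e-06). Hmox1, the heme-degrading enzyme, averaged 40.8, 71.0, and 87.2 (0.80 and 1.11, limma adjusted p = 0.0317 and 0.00303). The list's medians were -0.07, 0.002, and -0.02, near those of all genes. Nfe2l2, which encodes NRF2, averaged 1935, 1575, and 1499, with log2 differences of -0.30 and -0.37 against α4β7+. Both passed the adjusted p (limma, 0.0167 and 0.00263) but not the fold threshold, so Nfe2l2 was not called. Gsr, Slc7a11, Txnrd1, G6pdx, and Cbr1 also passed the adjusted p in CD22+ against α4β7+ (limma, 0.00877 to 0.0433), all lower and all under 1.5-fold.

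The P450 enzymes need electrons from POR and heme. None of 7 genes of that list was called in any of the 3 comparisons, and none of 8 tested mono-ADP-ribosylation genes other than Tiparp. Over all genes, 3.7%, 5.6%, and 0.21% were called higher and 4.35%, 6.39%, and 0.393% lower. At such shares, lists this short may hold no call. The median differences of these lists in CD22+ against α4β7+ were -0.06 and 0.12.

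**Figure D4:**
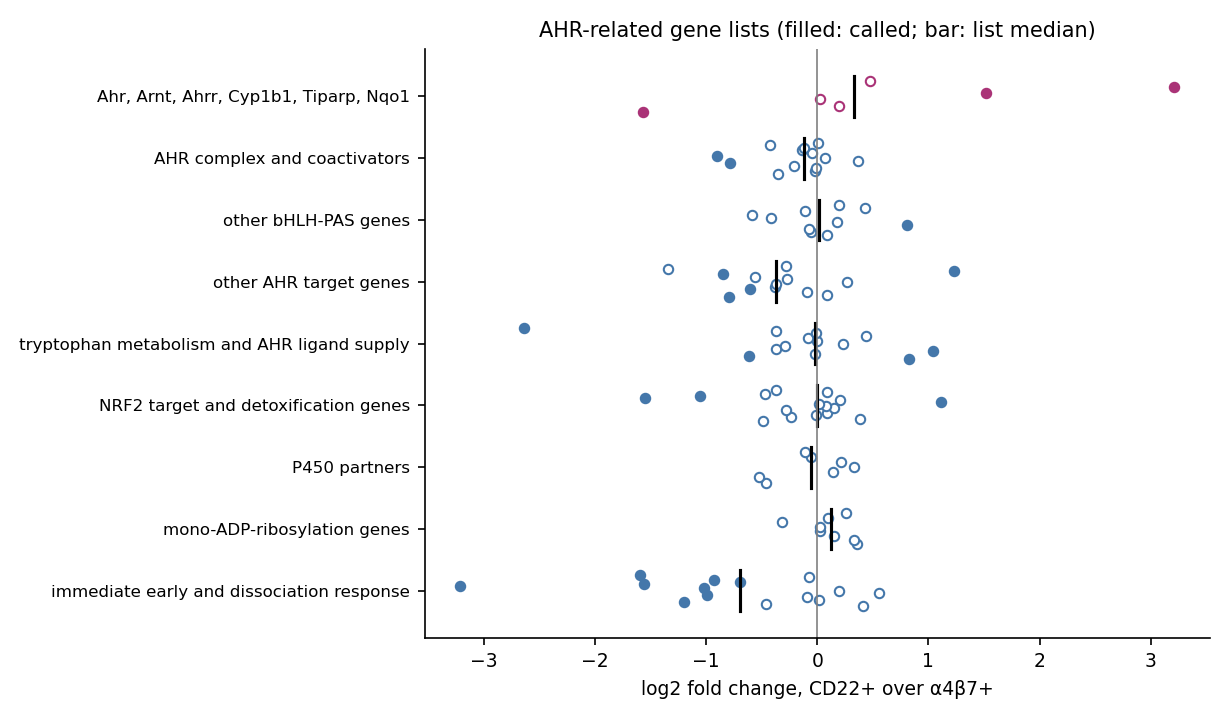
Log2 fold change of CD22+ over α4β7+ for each tested gene of the AHR pathway (top row) and of 8 related lists, with filled points called and bars at list medians. Cyp1b1 lies at 3.21 and Ahrr at 1.52, and the medians of the related lists run from -0.69 to 0.12.

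Markers of other cells were also examined, since intestinal epithelium and stroma can express Cyp1 genes. The 11 detected epithelial markers summed to 3698 to 7861 normalized counts in α4β7+, 2667 to 5406 in α4β7− CD22−, and 1792 to 8738 in CD22+ libraries. The 7 stromal markers summed to 1032 to 1605, 706 to 1509, and 867 to 2830. None of either list was called in any comparison, and none of these epithelial and stromal markers was at 0 in all libraries. Markers of B and plasma cells summed to 14808 to 32818, 10758 to 33188, and 15315 to 35931, also with none called. Of the other marker lists, 1 of 5 tested Paneth cell and 1 of 5 endothelial markers were higher and 1 of 2 neutrophil markers lower in CD22+ against α4β7+, beside 5.6% of all genes higher and 6.39% lower. That neutrophil marker, S100a9, averaged 19.0, 9.59, and 2.87 and passed the filter only through its α4β7+ libraries. In α4β7− CD22− against α4β7+, 2 of 6 T cell and ILC markers were lower, beside 4.35% of all genes, and no macrophage, dendritic, or mast cell marker was called. The part of these cells in the Cyp1b1 and Ahrr differences was not tested.

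The 10 eosinophil markers were detected in every subset, but their sum fell from 76469 to 92566 in α4β7+ to 57436 to 65696 in α4β7− CD22− and 43177 to 46814 in CD22+, with 4 of 10 called lower in the first comparison, 7 in CD22+ against α4β7+, and 1 in CD22+ against α4β7− CD22−, beside 4.35%, 6.39%, and 0.393% of all genes. The most abundant of these markers, Alox15 and Ccr3, averaged 30556, 18333, and 11077 and 25121, 15187, and 10773. Both were called lower in each comparison against α4β7+. Siglecf, Adgre1 (16843, 16665, and 13996), and Prg3 were not called in any comparison. The part of this fall in the AHR pathway differences was not tested. In RNA from sorted populations, fewer cells that express a gene and less RNA per cell cannot be told apart. Nothing in the labels says which libraries came from the same mice, and the p-values measure the spread between these pooled libraries.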

How the data were processed

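RNA from α4β7+, α4β7− CD22−, and CD22+ SI eosinophils was sequenced by the authors from 3 ng per sample with a stranded total RNA kit. Per the labels and methods, reads were trimmed with Trimmomatic 0.39, pseudoaligned to mm10 with kallisto 0.46.1, and normalized with DESeq2 1.38.2. The deposited signal values are these DESeq2-normalized counts. Between 25.8% and 59.3% of a library's low values lay within 5% of a multiple of 1 read, so whole reads were not recovered and a count test was not used.

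Genes were matched by identifier to GENCODE M21 (35968 of 36047) for coordinates and lengths, and promoters were taken from RefSeq for 6 of the 7 genes. Ahr had no entry in the promoter set used here. limma 3.58.1 in R 4.3.3 was fitted with a variance trend to all 12 libraries, on log2(normalized count + 1) for genes with an average above 10, and p was adjusted by Benjamini-Hochberg over 15249 genes per comparison. The difference between steps was a contrast of the same model. Cyp1a1, below the filter, was compared with an exact permutation test. Library pairs correlated at 0.963 to 0.982, and no pair was identical. Shared transcript sequence was found with BLAST 2.17.0 at 90% identity over at least 50 bases. The fit was checked on simulated data. Python 3.11.15, with pandas 2.3.3 and matplotlib 3.10.9, was used for tables and plots.

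The members and gene lists were chosen with earlier results of these data known. Some list genes are not reported here by name. The 7 members and list genes called in any comparison could be named, though not every called list gene is. For each tested member, the 3 genes with a mean of at least 100 and the highest Pearson correlation are also named. Gm42672 and 4931440P22Rik are named because they overlap members. Fos, Atf3, Hif1a, Nfe2l2, Hsp90aa1, Gsr, Slc7a11, Txnrd1, G6pdx, and Cbr1 fall outside this rule. So do the sort genes, the cell type markers, and the genes below the filter. These were chosen as context after their values were seen. Alternatives were pseudocounts of 0.1 and 10, no filter or one at 50, scaling by the 75th percentile, quantile normalization, no trend, the adjusted p alone, a block for the replicate number, a fit to the 2 subsets compared, and each library left out. No library or column was left out of the main fit.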

Additional observations from a re-analysis of the deposited data

How the results depend on the processing

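No estimate of a called AHR pathway gene changed sign under any alternative. Of 522 alternative estimates, 16 lost a call and 3 gained one. Between α4β7− CD22− and α4β7+, and between CD22+ and α4β7+, 3 of the 6 tested genes were called in all 12 fits that left out 1 library, and 3 or 4 under the other settings. Between CD22+ and α4β7− CD22−, the call of Cyp1b1 was lost without the filter and without the trend (0 genes called), and 0 to 1 were called with 1 library left out. For the difference between steps, 1 gene was called without the trend and 1 to 2 with 1 library left out.

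On the adjusted p alone, 2265, 3223, and 164 genes passed in the first comparison, in CD22+ against α4β7+, and in CD22+ against α4β7− CD22−, beside 1228, 1829, and 92. Without the trend, 54 genes passed in the last of these and 86 in the difference between steps, beside 180. With 1 library left out, the difference between steps gave 83 to 190 genes, with 94, 83, 98, and 119 without α4β7− CD22− replicates 1 to 4, the libraries that enter both steps.

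The labels number the libraries of every subset from 1 to 4, but libraries with the same number did not deviate together throughout. Over 12 such pairs, the correlation of deviations from the subset means ran from -0.06 to 0.20, and 7 were above 0.1. For 6 of 12 libraries, the best correlation in each of the other subsets was with their own number. Whether libraries with the same number share mice or a batch was not tested. A replicate block gave 1254, 1843, and 100 calls in the 3 comparisons and 212 in the difference between steps, and the AHR pathway genes called numbered 3, 3, 1, and 2, as without it.

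Cyp1a1 lay at or under the floor of 3 reads in 1, 3, and 4 of the 4 libraries of the 3 subsets, and the differences of genes this low depend on the pseudocount of 1.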
